A study of Mus musculus with 8 samples.

Results

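The 7 genes followed here through mouse skin wounds belong to arginine, nitric oxide and polyamine metabolism: Nos2, Odc1, Oat, Srm, Sms, Slc7a2 and Ass1. They were chosen by name from the pathway, and all 7 had a row in the tables, among 21742 genes that remained once mitochondrial genes were left out. The libraries were CD45+ immune cells (CD45 marks leukocytes) sorted from full-thickness wounds of the back skin of C57BL/6J mice. In the diabetic group, mice had received streptozotocin (STZ), a toxin of insulin-producing beta cells, at 120 mg/kg at 4 weeks of age after fasting and had high blood glucose; the control group had wounds without STZ. STZ gives a model of insulin deficiency, and each library pooled the wounds of several mice, so variation between mice within a library was not measured. Wounds were sampled on days 1, 3, 5 and 7, with 1 library per group and day, 8 libraries in all.

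Arginine enters cells through cationic amino acid transporters such as SLC7A2 and is then shared between competing enzymes. Nitric oxide synthases turn it into nitric oxide and citrulline, which argininosuccinate synthase (ASS1) helps to recycle into arginine. Arginine is also turned into ornithine, and ornithine feeds either proline, through ornithine aminotransferase (OAT), or polyamines, through ornithine decarboxylase (ODC1) and the spermidine and spermine synthases (SRM and SMS). In macrophages, NOS2 is commonly read as a marker of an inflammatory state.

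After filtering, 35215 cells remained, 3273 to 5440 per library, with a median of 2601 to 8463 unique molecular identifiers (UMIs, 1 per captured RNA molecule) per cell. The control day 5 library stood apart: 28.5% of its barcodes were removed, against 1.00% to 10.6% in the others, and its remaining cells were the deepest. Ptprc, which encodes CD45, had a UMI in 70.5% to 86.1% of the cells of each library. Clustering without the genes of the pathway gave 18 clusters, of which 17 could be named from markers; the last, 3444 cells led by Gm26917 and Malat1, stayed unnamed. By size, the classes were neutrophil-like (13811 cells), macrophage-like (6520 cells), monocyte-like (4994 cells), dendritic-like (2859 cells), T cell-like (2458 cells), NK cell-like (540 cells) and osteoclast-like (389 cells), beside 148 mast cell-like and 52 fibroblast-like cells. Neutrophil-like cells made up 60.02% of the control library on day 1 and 8.005% on day 5, and 51.2% and 45.8% of the diabetic libraries on the same days. Macrophage-like cells made up 49.8% of the control library on day 7 and 24.9% of the diabetic one. In whole libraries, therefore, a gene's level depends both on which cells were present and on how much RNA each held, and fewer cells of a type cannot be told apart from less RNA per cell there. Levels are given as CPM, a gene's UMIs scaled to the total UMIs of the sample or class. They were compared between samples and classes but not between genes.

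Nos2 (chromosome 11, 78920787 to 78960254, plus strand, GRCm38), the inducible nitric oxide synthase of activated myeloid cells, stood at 38.3, 30.2, 21.1 and 35.2 CPM in the diabetic libraries. In the control libraries it stood at 33.6, 9.85, 1.56 and 1.43. The values were close on day 1, and only the control libraries were near 0 by days 5 and 7. The diabetic level was 1.14 times the control level on day 1 (95% interval 1.02 to 1.27), 3.06 times on day 3 (2.62 to 3.60), 13.5 times on day 5 (9.94 to 18.7) and 24.7 times on day 7 (18.4 to 33.9). Exact Poisson intervals of this kind cover counting error only, and a single day had no replicate and no test. Over the 4 days Nos2 was 5.72-fold higher in diabetic libraries (log2 2.52 ± 0.79 SE, unadjusted p = 0.017). The adjusted p was 0.451 (edgeR), so this difference was not called. Over 14 settings the log2 value ranged from 1.26, with day left out of the model, to 3.39, without either day 1 library, and the adjusted p from 0.119 (DESeq2) to 0.798. It was 1.94 without either day 5 library and 1.84 without either day 7 library. The slopes of the groups differed by 0.77 ± 0.15 on the log2 scale per day (unadjusted p = 0.00084; edgeR, adjusted p = 1.00, where 0% of 13857 genes passed); DESeq2 gave an adjusted p of 0.018, the lowest of 13 settings, which reached up to 1.00.

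**Figure D1:**
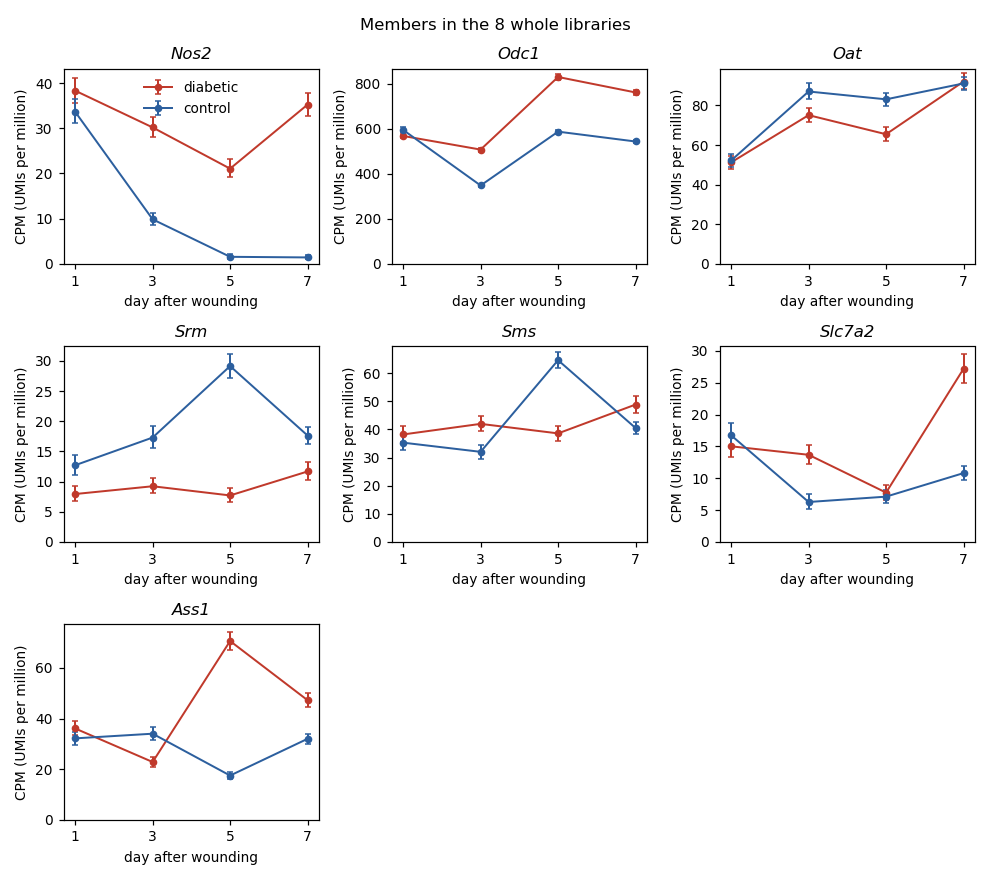
Level of each gene in the whole libraries (y axis, CPM, from 0; x axis, day after wounding). Points are single libraries, red for diabetic and blue for control, and bars are 95% exact Poisson intervals. Nos2 goes from 33.6 to 1.43 in control and stays between 21.1 and 38.3 in diabetic libraries, and Srm is lower in the diabetic library on all 4 days.

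None of the 7 genes passed the test of diabetic against control wounds in whole libraries (edgeR, adjusted p of 0.451 or more), where 0% of 13857 genes passed; 2 of the 7, and 1521 of all genes tested, had an unadjusted p under 0.05. Of the 7 log2 values, 5 were positive, with a median of 0.40 against -0.0038 over all genes. DESeq2 called 92 genes in the same comparison, Srm among them. In the classes, too, none of the tested members passed (edgeR): 7 of 7 were tested in neutrophil-like cells (0.0185% of all genes called), monocyte-like cells (0.0097%), macrophage-like cells (0.00905%) and dendritic-like cells (0.01%), and 5 in T cell-like cells (0%). At an unadjusted p under 0.05 there were 2, 4, 2, 2 and 0 members in the same order, where 8.36%, 6.36%, 9.18%, 5.94% and 2.71% of all genes tested were.

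**Figure D2:**
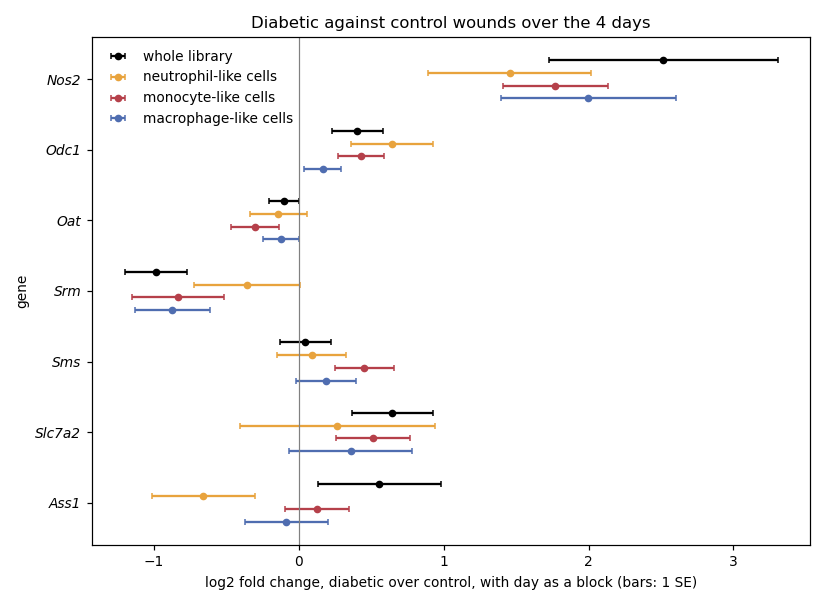
Log2 fold change of diabetic over control wounds for each gene (x axis), with day as a block in edgeR; points are estimates and bars are 1 SE. Colours mark whole libraries and 3 cell classes. Nos2 lies to the right of 0 in all 4 and Srm to the left, and no value passed the adjusted threshold.

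Among the named classes with a level in more than 1 library, Nos2 was highest in monocyte-like and neutrophil-like cells, although in control day 7 macrophage-like cells held 24 of its 47 UMIs. Monocyte-like cells held 47.5, 78.4, 57.6 and 193 CPM in diabetic libraries and 36.9, 14.5, 18.0 and 12.7 in control libraries, so every diabetic value lay above every control value. The control values rested on few molecules, 14 on day 5 and 4 on day 7. Nos2 was 3.41-fold higher in diabetic monocyte-like cells (log2 1.77 ± 0.36 SE, unadjusted p = 0.00023; edgeR, adjusted p = 0.173, with 0.0097% of 10312 genes called). DESeq2 gave an adjusted p of 0.0030, within a range of 1.7e-12 to 0.960 over 17 settings, and leaving out 1 library gave log2 values of 1.35 to 2.54, past the threshold without diabetic day 1, diabetic day 3, control day 1, control day 3 or control day 5.

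Neutrophil-like cells held 38.6, 35.7, 19.1 and 61.3 Nos2 CPM in diabetic libraries and 37.9, 19.6, 9.04 and 2.69 in control libraries. The groups were alike on day 1, and the diabetic level was 22.8 times the control level on day 7 (95% interval 13.3 to 42.4). The slopes differed by 0.77 ± 0.13 on the log2 scale per day (unadjusted p = 2.3e-05; edgeR, adjusted p = 0.249, with 0% of 10824 genes called). Over 16 settings the adjusted p ranged from 5.8e-07 to 1.00, and it passed with DESeq2 (0.0023), without the filter on low counts and without diabetic day 5 (0.034). Averaged over days, Nos2 in these cells was not called (log2 1.46; edgeR, adjusted p = 0.527), and it passed only without the filter on low counts (4.1e-05) among 17 settings. In the same cells the 8 macrophage markers also differed between libraries, as given with the trends over days, and their part here was not tested. Neutrophil-like cells of both groups sat in the same clusters, but in different shares. The cluster led by Il23a, Il1a and Ccl3 held 662 of 2446, 807 of 2676, 842 of 1920 and 199 of 773 diabetic neutrophil-like cells and 1202 of 2648, 166 of 1997, 20 of 262 and 27 of 1089 control ones. Within it, Nos2 stood at 21.8, 77.5, 30.5 and 197.5 CPM in diabetic and 43.2, 85.4, 0 and 12.4 in control libraries, so the control level was the higher one on days 1 and 3. The last 2 control values rest on 0 and 2 UMIs. Macrophage-like cells held 4.16 to 11.6 in diabetic and 0.551 to 5.02 in control libraries. T cell-like cells, a background reference, held 5.18 to 11.1 in diabetic and 0 to 5.07 in control libraries, and the macrophage-like level was above it in 4 of 8 libraries (mean log2 difference 0.19 ± 0.85 SD; exact sign-flip permutation test, adjusted p = 0.711 over 42 pairs of neighbouring classes).

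**Figure D3:**
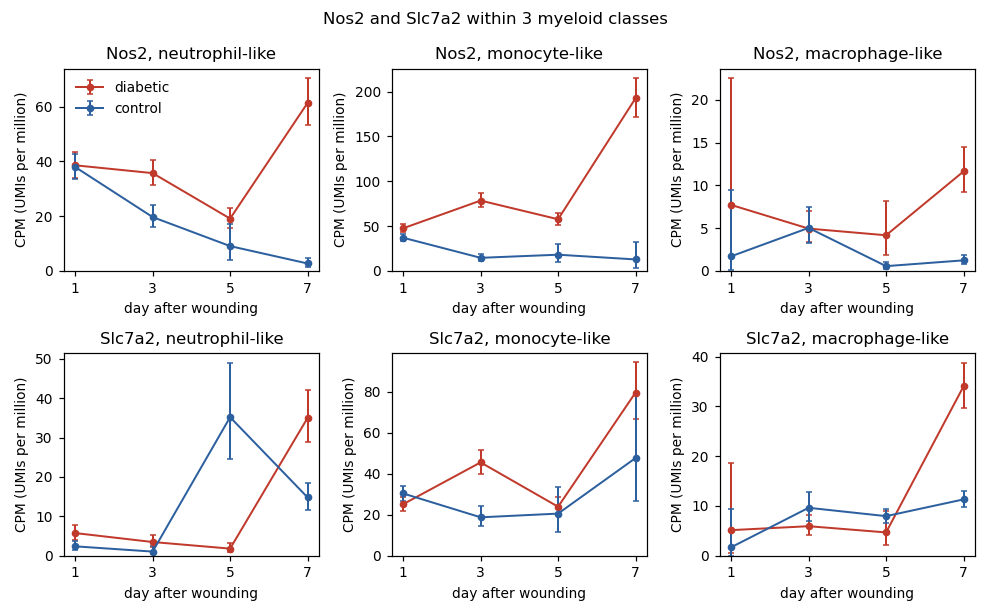
Nos2 (top) and Slc7a2 (bottom) in neutrophil-like, monocyte-like and macrophage-like cells (y axes, CPM, from 0, each panel with a scale of its own; x axis, day). Points are single libraries, red diabetic and blue control, with 95% exact Poisson intervals. Nos2 in monocyte-like cells is 193 in diabetic and 12.7 in control day 7, and Slc7a2 in macrophage-like cells is 34.0 and 11.3.

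To compare cells at 1 depth, each cell was thinned to 1000 UMIs. Nos2 was then seen in 3.003%, 5.04%, 3.29% and 11.8% of diabetic monocyte-like cells and in 2.67%, 1.40%, 1.32% and 2.63% of control ones. Without thinning the shares were 7.06%, 11.9%, 8.65% and 26.9% against 7.54%, 3.35%, 5.95% and 2.63%. T cell-like cells gave 0% to 0.599% after thinning, with a median of 3464 to 4397 UMIs per cell before it, against 5699 to 9124 in monocyte-like cells. Nos2 and Slc7a2 were seen together in 6 of 4330 thinned monocyte-like cells, where independent detection would give 3.31. These cells share libraries, so the counts are a description without a test.

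At a finer resolution, 4 clusters of monocyte-like cells formed. In the cluster led by Ppbp, Nos2 stood at 89.3, 189, 175 and 504 CPM in diabetic libraries on days 1, 3, 5 and 7, against 5.87 to 15.2 in the cluster led by Vcan and Chil3. In control days 1, 3 and 5 the cluster led by Ppbp held 47.2, 199.6 and 52.9, so the groups were close within it on day 3. It had 309, 198, 138 and 51 cells in the diabetic libraries and 444, 21 and 20 in control days 1, 3 and 5. On day 3 both the number of its cells and the class-level Nos2 were higher in the diabetic library. On day 1 the control library had more of its cells, while the class-level Nos2 was 1.29 times higher in the diabetic one. On day 5 the values within it were apart, at 175 and 52.9. The part of cell number in the class-level difference was not tested. Nos2 was higher in this cluster than in the one led by Vcan in every library that had both. Slc7a2 stood at 36.4, 68.2, 58.9 and 89.7 in the cluster led by Ppbp and at 21.1, 38.9, 9.46 and 40.6 in the one led by Vcan in diabetic libraries. In control day 1 the order was the same, 44.5 and 29.0, and in control day 3 it was the other way, 10.51 (from 2 UMIs) and 20.1. No test was run, since cells were sorted into these clusters by their expression.

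Over days, none of the 7 genes passed in whole libraries (edgeR, adjusted p of 0.090 or more; 1 with an unadjusted p under 0.05), where 10.3% of 13332 genes did, and 4 of the 7 passed in neutrophil-like cells, against 44% of 10173 genes. Per day, on the log2 scale and averaged over both groups, Nos2 fell by 0.35 ± 0.12, while Srm rose by 0.32 ± 0.08, Ass1 by 0.31 ± 0.11 and Sms by 0.17 ± 0.05 (edgeR, adjusted p of 0.0072 to 0.032). For Nos2 the groups' own values differ, with 38.6 and 61.3 CPM on days 1 and 7 in diabetic and 37.9 and 2.69 in control libraries. Without TMM, the scaling that corrects library totals for composition, the median slope of all genes moved by 0.16, from 0.02 to 0.18, upward calls went from 52.4% to 90.6%, and Nos2 lost the call, at -0.19. Nos2 also lost it with DESeq2 (adjusted p = 0.054). Nos2 was below the median under either scaling. Leaving out 1 library ended the Nos2 call without control day 1, 5 or 7. It ended the Sms call without diabetic day 1 or 7 or control day 1 or 7, the Ass1 call without diabetic day 7 or control day 1 or 3, and the Srm call without control day 7. None of the members tested passed over days in monocyte-like (0.694% of all genes called), macrophage-like (0.822%), dendritic-like (0.377%) or T cell-like cells (0.0584%), where 7, 7, 5 and 5 members were tested (edgeR; 2, 1, 1 and 0 with an unadjusted p under 0.05). The summed level of 8 macrophage markers in the same neutrophil-like cells went from 351 to 9907 CPM between days 1 and 7 in diabetic and from 652 to 10099 in control libraries, with Apoe the highest on day 7 in both and no marker at 0, and the summed level of 8 neutrophil markers went from 61865 to 14666 and from 49295 to 14654. The neutrophil-like clusters also changed over days. The cluster led by Ighg2b held 139 cells on day 1 and 452 on day 7 in diabetic libraries. In control libraries it held 137 and 961. The cluster led by Ngp went from 911 to 135 cells between diabetic days 1 and 5, and from 691 to 34 between control days 1 and 3. Over all libraries Srm stood at 11.5 CPM in the first and 1.96 in the second. Within the first it was 0 on day 1 and 7.85 (diabetic) and 15.7 (control) on day 7. The part of these markers and clusters in the member trends was not tested.

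Slc7a2 (chromosome 8, 40862396 to 40922308, plus strand), a transporter of arginine and other cationic amino acids, was highest in monocyte-like cells among the classes with more than 1 library; the fibroblast-like class, with 1, held 39.6 CPM. In monocyte-like cells it stood at 25.2, 45.6, 23.9 and 79.7 CPM in diabetic and at 30.4, 18.8, 20.6 and 47.7 in control libraries, with overlapping groups. The level exceeded that of macrophage-like cells by 1.98 ± 0.87 (SD) on the log2 scale in 8 of 8 libraries (exact sign-flip permutation test, p = 0.0078, the smallest that 8 libraries allow; adjusted p = 0.066, so neither this nor any other of the 42 pairs passed). In macrophage-like cells it stood at 5.14, 5.93, 4.68 and 34.0 in diabetic and 1.70, 9.63, 7.95 and 11.3 in control libraries. The widest gap in CPM was on day 7, while the ratio of the low day 1 values was about as large. In whole libraries the diabetic values were 15.01, 13.7, 7.74 and 27.2 and the control values 16.7, 6.26, 7.10 and 10.8, a 1.57-fold difference that was not called (edgeR, adjusted p = 0.452).

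The cells that held the Slc7a2 molecules changed over days. Monocyte-like cells held 82.9%, 72.5%, 74.7% and 22.2% of its UMIs in the diabetic libraries and 88.9%, 48.8%, 7.66% and 4.21% in the control libraries. Macrophage-like cells held 62.1% in control wounds on day 7 and 39.5% in diabetic wounds. Of the Nos2 UMIs, monocyte-like cells held 61.2%, 56.4%, 65.9% and 41.4% in diabetic and 53.7%, 24.0%, 30.4% and 8.51% in control libraries. Monocyte-like cells themselves were 35.6% of diabetic and 28.9% of control cells on day 1, and 5.498% and 0.817% on day 7.

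**Figure D4:**
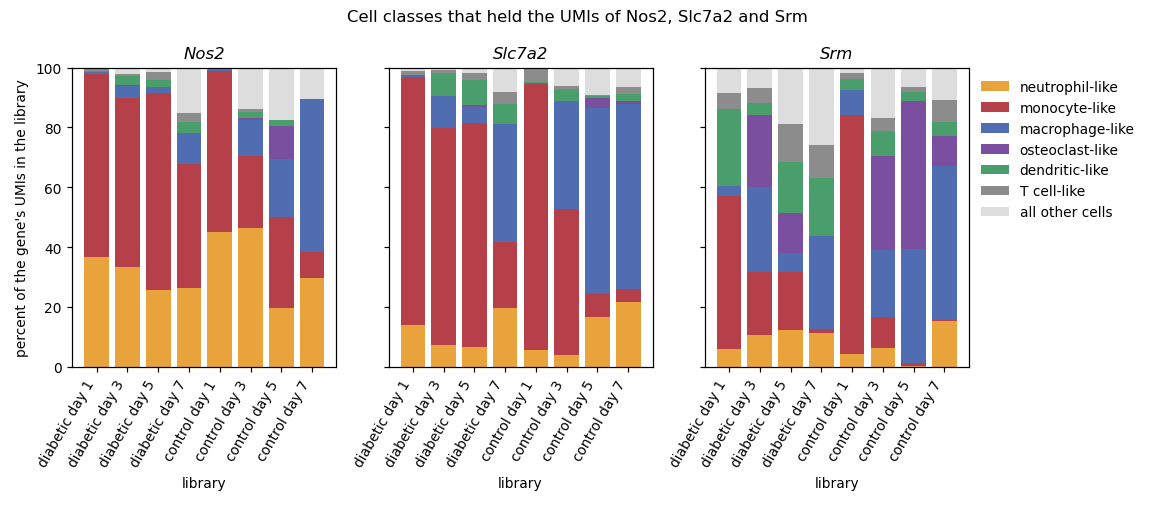
Percent of the UMIs of Nos2, Slc7a2 and Srm (y axis, 0 to 100) found in each cell class (colours) of each library (x axis). The monocyte-like share of Slc7a2 is 82.9% in diabetic day 1 but 4.21% in control day 7, where macrophage-like cells hold 62.1%, and osteoclast-like cells hold 49.4% of Srm in control day 5.

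Ass1 (chromosome 2, 31470207 to 31520672, plus strand), the enzyme that joins citrulline and aspartate, was highest in dendritic-like cells, at 90.4, 72.7, 159 and 79.1 CPM in diabetic and 122, 97.8, 73.5 and 111 in control libraries. T cell-like cells followed at 63.4 to 110.2, and these neighbours did not differ beyond their spread (0.18 ± 0.42 SD; exact sign-flip permutation test, adjusted p = 0.500). T cell-like cells exceeded monocyte-like cells by 0.79 ± 0.41 (SD) on the log2 scale in 8 of 8 libraries (exact test, adjusted p = 0.066). The whole-library level was highest in diabetic day 5, at 70.6, with the other 7 libraries at 17.5 to 47.2.

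Ornithine is carried on by OAT and ODC1. Odc1 (chromosome 12, 17544794 to 17551505, plus strand), the rate-limiting enzyme of polyamine synthesis, was highest in T cell-like cells, at 1552, 2141, 3043 and 2100 CPM in diabetic and 1692, 1069, 1521 and 1905 in control libraries. The diabetic value was lower on day 1 and higher on the other 3 days. NK cell-like cells came next, at 437 to 1220; T cell-like cells were higher by 1.31 ± 0.24 (SD) on the log2 scale in 6 of 6 libraries (exact sign-flip permutation test, p = 0.031, the smallest that 6 libraries allow; adjusted p = 0.131). In the T cell-like cluster led by Trdc and Il17f, Odc1 stood at 1668, 2430, 4181 and 3443 in diabetic and 2240, 1435, 1568 and 2496 in control libraries. In the one led by Ctla4 and Trac it stood at 1438, 1707, 1933 and 1790 and at 1240, 949, 1505 and 1381, lower in each library than in the first. The diabetic value was higher on days 3, 5 and 7 within both clusters. The share of cells in the first also differed between the groups, but not in 1 direction. On day 1 it was 59 of 113 diabetic and 47 of 105 control T cell-like cells. On day 3 it was 107 of 173 and 78 of 251, and on day 5 255 of 482 and 50 of 166. Day 7 went the other way, with 162 diabetic cells in the first cluster and 513 in the second, against 270 and 223 control cells. In whole libraries Odc1 stood at 568, 507, 830 and 761 in diabetic and at 595, 348, 587 and 543 in control wounds, 1.32-fold higher without a call (edgeR, adjusted p = 0.452).

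The promoters of Odc1 and Sms, which open and close polyamine synthesis, are shown because these genes were highest in different classes. Windows were available for 4 of the 7 genes (Odc1, Oat, Sms and Ass1), from RefSeq on GRCm38.p6, each covering the 250 bases before a RefSeq start, 5′ to 3′ on the gene's strand. The sequence is printed up to the base before the gene's first annotated base in GRCm38, chr12:17544623-17544793 on the plus strand for Odc1 (171 bases) and chrX:157492288-157492537 on the minus strand for Sms (250 bases). Capitals mark the E-box CACGTG and the GC box GGGCGG, searched on both strands.
Odc1: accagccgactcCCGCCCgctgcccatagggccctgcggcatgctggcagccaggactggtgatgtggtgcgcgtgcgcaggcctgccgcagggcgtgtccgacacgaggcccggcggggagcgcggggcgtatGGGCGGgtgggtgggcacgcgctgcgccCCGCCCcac
Sms: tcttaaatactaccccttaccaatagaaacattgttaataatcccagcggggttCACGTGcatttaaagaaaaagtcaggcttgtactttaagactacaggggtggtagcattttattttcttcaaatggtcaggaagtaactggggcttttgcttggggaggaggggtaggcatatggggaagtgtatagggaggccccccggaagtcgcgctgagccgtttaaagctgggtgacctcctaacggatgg
The Odc1 window held 4 GC boxes, at 238, 116, 88 and 15 bases before the start, of which the first 3 are in the printed part, and no E-box. The Sms window printed held 1 E-box at 196 bases before the start and no GC box. RefSeq gives Sms a second start, inside the gene as annotated in GRCm38, whose window (chrX:157491369-157491618, not printed) held the reverse, 4 GC boxes at 176, 172, 168 and 128 bases before that start and no E-box. Of 32851 windows of the same length, 6.02% held an E-box and 32.7% a GC box. The TATA letters TATAA, found in 22.8% of windows, were in none of these windows.

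Oat (chromosome 7, 132557478 to 132576398, minus strand), which turns ornithine towards proline and glutamate, was the most even of the 7 across classes. It stood at 51.2, 75.1, 65.4 and 92.04 CPM in diabetic and 52.2, 87.0, 83.1 and 91.1 in control libraries. The first day was lowest in both groups. Class means ran from 62.5 in neutrophil-like to 102 in osteoclast-like cells, with 223 in the 1 library of fibroblast-like cells. Only classes next to each other in level were tested. None of the 6 pairs passed for Oat (exact sign-flip permutation tests, adjusted p of 0.177 or more). As no pair passed for any gene, these tests cannot show that Oat is even.

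Srm (chromosome 4, 148591503 to 148594993, plus strand) and Sms (chromosome X, 157443855 to 157492287, minus strand), which make spermidine and spermine, were highest in osteoclast-like cells among the classes with more than 1 library. Srm stood there at 53.5 in diabetic day 3 and at 131, 71.3 and 52.7 in control days 3, 5 and 7, the 4 libraries with at least 20 such cells. The level exceeded that of macrophage-like cells by 2.16 ± 0.55 (SD) on the log2 scale in 4 of 4 libraries, and that of Sms by 1.40 ± 0.47. In control day 7, the only library with at least 20 fibroblast-like cells, Srm stood at 66.7 in those. With 4 libraries no exact test can pass, so these are descriptions. Osteoclast-like cells made up 7.73% of the cells of control day 5 and held 20.2% of all its UMIs and 49.4% of its Srm UMIs.

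In whole libraries Srm stood at 7.93, 9.22, 7.69 and 11.7 CPM in diabetic and at 12.7, 17.3, 29.1 and 17.6 in control wounds. Every diabetic value lay below every control value. Srm was 0.505 times the control level (log2 -0.99 ± 0.22 SE, unadjusted p = 0.0031; edgeR, adjusted p = 0.451), and DESeq2 gave an adjusted p of 0.037. The adjusted p ranged from 0.037 to 0.798 over 14 settings. The difference was also below 0 without control day 5, the library rich in osteoclast-like cells (log2 -0.73, a fit in which diabetic day 5 has no partner and adds nothing), and in macrophage-like cells (log2 -0.87 ± 0.26 SE; edgeR, adjusted p = 0.346) and monocyte-like cells (log2 -0.83 ± 0.32 SE; edgeR, adjusted p = 0.638). Sms, by contrast, was 38.2, 42.0, 38.6 and 48.9 in diabetic and 35.3, 32.0, 64.7 and 40.5 in control libraries, with overlapping groups (log2 0.05 ± 0.18 SE; edgeR, adjusted p = 0.926).

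**Figure D5:**
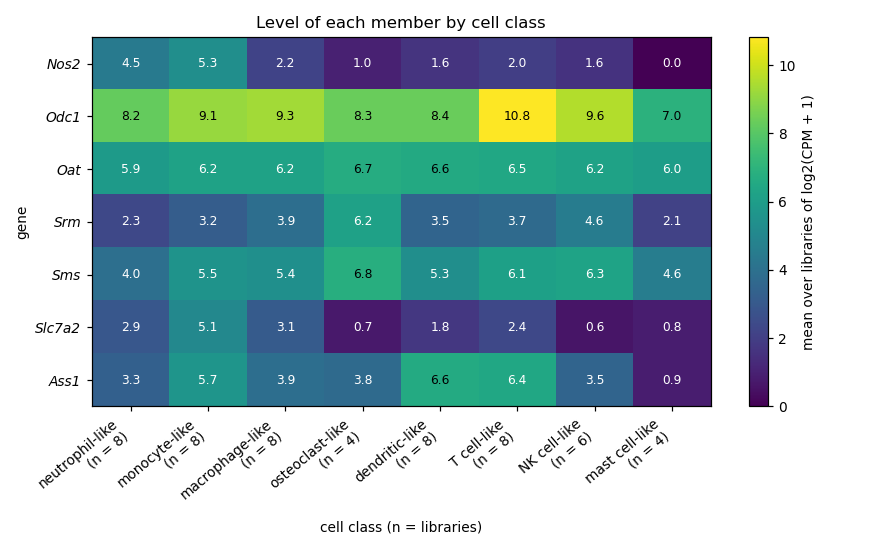
Mean over libraries of log2(CPM + 1) for each gene (rows) in each cell class (columns; n is the number of libraries with at least 20 cells of the class). Rows are compared across classes only. Fibroblast-like cells, with 1 library, are not drawn. Among the classes drawn, Slc7a2 peaks in monocyte-like, Odc1 in T cell-like and Srm and Sms in osteoclast-like cells.

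Of the other pathway genes, 45 were listed in 7 groups and 43 were in the tables. In whole libraries 38 could be tested between diabetic and control wounds and 0 passed (edgeR), with a median log2 of -0.16. Over days, 4 of 37 passed, where 10.3% of all genes did: Gatm, which makes the creatine precursor, rose by 0.33 ± 0.09 on the log2 scale per day and P4ha2, a prolyl hydroxylase subunit, rose by 0.25 ± 0.06, while Gch1, the first enzyme of the nitric oxide synthase cofactor tetrahydrobiopterin, fell by 0.17 ± 0.04 and Sat1, which acetylates polyamines, fell by 0.15 ± 0.03 (edgeR, adjusted p of 0.031 to 0.049). All 4 calls ended without diabetic day 1, diabetic day 7, control day 1 or control day 7, up to an adjusted p of 0.239, and those of Gch1 and Sat1 also ended without TMM, under which upward calls among all genes went from 33.4% to 79.7%. Among lists without a call over days in whole libraries, Slc3a2 and Slc7a1 of arginine transport had mean levels of 839 and 50.3 CPM, and Oaz1 and Azin1, which restrain and release ornithine decarboxylase, 401 and 289. Of the citrulline and urea cycle list only Asl, which completes arginine synthesis, could be tested, at a mean of 31.4.

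In neutrophil-like cells 16 of 30 of these genes passed over days, 10 upward and 6 downward, against 44% of all genes. Among nitric oxide synthases and their regulators, Pts fell by 0.42 ± 0.11 on the log2 scale per day, while Qdpr rose by 0.40 ± 0.06, Nostrin by 0.38 ± 0.10 and Spr by 0.30 ± 0.06 (edgeR, adjusted p of 0.00053 to 0.010). Pts, Spr and Qdpr make or recycle tetrahydrobiopterin. Of polyamine catabolism and use, Paox rose by 0.56 ± 0.11, Mtap by 0.47 ± 0.09 and Atp13a2 by 0.30 ± 0.07, while Smox, spermine oxidase, fell by 0.33 ± 0.07 (edgeR, adjusted p of 0.0017 to 0.0065). Oaz2 fell by 0.24 ± 0.05 and Azin1 fell by 0.16 ± 0.04, and the creatine enzymes Gatm and Gamt rose by 0.57 ± 0.12 and 0.38 ± 0.09 (edgeR, adjusted p of 0.0028 to 0.011). The transporters Slc25a15 and Slc7a7 rose by 0.27 ± 0.10 and 0.20 ± 0.07 (edgeR, adjusted p of 0.044 to 0.045). Of the 16 calls, 10 were kept whichever library was left out; those of Azin1, Gatm, Pts, Sat1, Slc25a15 and Slc7a7 were not, and 4 of the 6 downward calls ended without TMM. These slopes stand beside the same change in macrophage markers and in neutrophil-like clusters as those of the 7 genes. The same shift with scaling also applies, and the part of each was not tested.

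Over 63 combinations of class and library, the genes whose log2 levels followed Odc1 most closely among 5899 were Emb (Pearson r = 0.83), Ttc39c (0.79) and Ube2j1 (0.79). Those closest to Sms were Abce1 (0.85), Psmc2 (0.84) and Cct8 (0.84), and to Ass1 Ramp3 (0.86), Irf4 (0.80) and Avpi1 (0.79). For Oat they were Ahcyl1 (0.69), Tsnax (0.68) and Ddost (0.67). The points share libraries and depth, so these are descriptions. Nos2, Srm and Slc7a2 had mean levels under 20 CPM and were not compared.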

How the data were processed

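CD45+ wound cells of 8 libraries were measured by single-cell RNA sequencing. The authors deposited raw UMI counts per gene and cell for each library; the labels' processing notes name fastp 0.20.1 and the build mm9, while the study's methods name an Ensembl release on a later build, so positions here come from the GRCm38 annotation by gene symbol. The study's methods and the series record name different capture platforms. The members and all lists were chosen with earlier results of these data known; 2 of the 9 listed genes are not reported here.

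Kept cells had more than 200 genes and a mitochondrial share below 20%; their number exceeds the total in the study's text and lies near the sum of its table of cells per cluster. Cells were scaled to 10000 UMIs, 2000 variable genes without members or pathway genes gave 10 principal components and 30 neighbours, and Leiden clustering at resolution 0.8 (scanpy 1.11.5, leidenalg 0.10.2) was named from fixed markers. Scrublet marked 199 cells (0.565%), kept in the main result. Cell names are running numbers, so barcodes shared between libraries could not be counted; 0 cell columns had identical counts in 2 libraries.

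Counts were summed per library and class with at least 20 cells and fitted with edgeR 4.0.16 (quasi-likelihood, TMM, filterByExpr, Benjamini-Hochberg over all genes) in 6 units and 3 comparisons: diabetic against control with day as a block, slope over days, and difference of slopes. The block pairs the libraries by the day their labels give. DESeq2 1.42.0, no filter on low counts, no TMM, each library left out, other resolutions and stricter cell filters were alternatives. Days serve as replicates. With day as a block, the p-values of diabetic against control measure the spread of the group difference between days. A difference that changes over days adds to this spread. The p-values of the slopes measure the spread of libraries about straight lines over days. Classes were compared on log2(CPM + 1) with two-sided exact sign-flip permutation tests. Total counts per library were 19236522 to 33842509 UMIs; exact 95% Poisson and binomial intervals cover counting error only. On simulated counts of the whole libraries, 68% of log2 1 and 100% of log2 2 changes were recovered between diabetic and control over 13575 genes. For the slope 36% and 95% were recovered over 13259 genes, but 0% and 19% for the difference of slopes over 13541 genes. Of the calls, 5.62%, 5.07% and 9.52% were false, in this order. In the measured libraries Nos2, at log2 2.52 ± 0.79 SE, was not called. The shares therefore do not hold for genes with a wide spread, and a missing call does not exclude a change. The 7 members reported were all named; of each other pathway list, at most the 4 called genes with the largest change were named, or the 2 highest where none was called. Odc1 has processed copies in the mouse genome, and how shared reads were counted is not given in the sources used here.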

Additional observations from a re-analysis of the deposited data

How the results depend on the processing

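The number of genes called (edgeR, diabetic against control; slope; difference of slopes) moved with the tool, the filter and single libraries. With DESeq2 the counts became 92, 2851 and 2 in whole libraries (0, 1378 and 0 with edgeR). They became 39 for diabetic against control and 1 for the difference in neutrophil-like cells (2 and 0), 15 and 265 for the first pair in monocyte-like cells (1 and 68), 67, 221 and 2 in macrophage-like cells (1, 87 and 0), 16 and 164 in dendritic-like cells (1 and 36) and 88 for the slope in T cell-like cells (5). Without the filter on low counts, diabetic against control gave 1 in whole libraries and 132, 85, 186, 120 and 30 in neutrophil-, monocyte-, macrophage-, dendritic- and T cell-like cells. The slope then gave 356, 340, 360 and 119 in the last 4, and the difference of slopes 21, 17, 28, 15 and 48 in all 5. Without TMM the slope gave 2380 in whole libraries, and diabetic against control 2 in macrophage-like cells.

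Resolution 0.4 gave 0 calls in monocyte-like and 4 in macrophage-like cells for diabetic against control, and resolution 1.6 gave 5 in neutrophil-like, 0 in monocyte-like and 12 in macrophage-like cells. Removing called doublets gave 5 in monocyte-like and 2 in macrophage-like cells, 56 for the macrophage-like slope and 1.24 for the log2 excess of Ass1 in dendritic-like over monocyte-like cells (0.97). Cells with at least 500 genes gave 0 in neutrophil-like cells, and slopes of 114, 22 and 16 in monocyte-, dendritic- and T cell-like cells. Without the replicate block that pairs the libraries by day, diabetic against control gave 0 in neutrophil-, monocyte-, macrophage- and dendritic-like cells, and no member call changed.

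Leaving out 1 library gave ranges of 0 to 1, 1 to 1618 (lowest without control day 1) and 0 to 0 in whole libraries, 3 to 12, 2371 to 5122 and 0 to 1 in neutrophil-like, 0 to 97, 10 to 254 and 0 to 1 in monocyte-like, 7 to 104, 1 to 157 and 0 to 4 in macrophage-like, 1 to 7, 0 to 117 and 0 to 5 in dendritic-like and 0 to 0, 0 to 37 and 0 to 0 in T cell-like cells. The log2 difference of Sms in whole libraries (0.05) ranged from -0.10 to 0.26 when 1 library was left out. The cause of these changes was not tested. Depth limits the low genes, with 4 Nos2 and 2 Srm UMIs in control day 7 monocyte-like cells.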

Other observations

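Fibroblast-like cells were 52 in all after the CD45+ sort, yet their share of Nos2 UMIs was 12.5% in diabetic day 7 (95 of 758) and 10.6% in control day 7 (5 of 47). In diabetic day 7 they also held 18.7% of the Srm UMIs while making up 0.191% of the cells and 1.49% of all UMIs. These values come from few cells and were not tested.

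Weighting every library to the same composition of 6 classes, an alternative chosen after seeing the data, left the mean log2 difference of Nos2 between diabetic and control libraries at 1.86 (2.51 as measured over the same classes) and that of Srm at -0.74 (-0.95), while Slc7a2 went from 0.56 to 0.22 and Ass1 from 0.51 to -0.03. Osteoclast-, NK cell-, mast cell- and fibroblast-like cells do not enter these values.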
